A study of Mus musculus with 2 samples.

Results

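Transcripts of 8 sensors and adaptors of cytosolic RNA were followed in monocytic myeloid-derived suppressor cells (M-MDSCs) from tumours of mice on a normal-salt diet (NSD) or a high-salt diet (HSD). The genes were Ddx58, Ifih1, Dhx58, Mavs, Zbp1, Eif2ak2, Trim25 and Adar, chosen by their function, and every non-control probe whose transcript identifier belongs to one of them in RefSeq was read. This gave 8 of the 20653 genes that could be named on the array, with 12 of its 39413 probes. Ddx58, Ifih1, Zbp1 and Adar had 2 probes each and the other 4 genes 1 probe each. Each probe was printed in 1 spot per array, and no spot of these probes was marked as an outlier or saturated.

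The cells came from subcutaneous tumours of 4T1, a mouse mammary carcinoma line, in young adult female BABL/c mice. All mice were starved for 1 day, received 1000000 4T1 cells and were then assigned by lottery to a diet for 16 days. NSD meant chow with 0.4% NaCl and plain tap water, and HSD meant chow with 4% NaCl and drinking water with 1% NaCl. M-MDSCs were purified with a magnetic bead kit, equal numbers of cells were mixed within a diet group, and the RNA was labelled with Cy3 and hybridised to 1 Agilent array per diet. The mice of a group thus contributed a single pooled value per probe. Since the spread between mice was not measured, the diet could not be tested, and a difference below is described by its size, by the error that the scanner software gives for each spot and by the agreement of probes. That error was 10.0% of the signal for most of these probes, which amounts to 0.20 on the log2 scale for a difference between the arrays, and it covers the measurement within an array alone.

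Cytosolic RNA sensing detects double-stranded RNA or RNA with unmodified 5′ ends, as viruses produce, and it can also react to RNA of the cell itself. The helicases RIG-I (gene Ddx58) and MDA5 (Ifih1) bind such RNA and engage MAVS on mitochondria, from which kinases activate IRF3, IRF7 and NF-κB and so the transcription of type I interferons. LGP2 (Dhx58) is a related helicase without the signalling domain, TRIM25 is a ubiquitin ligase that acts on RIG-I, ZBP1 binds left-handed nucleic acids and can start necroptosis, PKR (Eif2ak2) stops translation by phosphorylating eIF2α, and ADAR1 (Adar) edits double-stranded RNA and keeps it from being sensed. Several of these genes are themselves induced by type I interferon through the factor ISGF3, which binds a sequence called the interferon-stimulated response element (ISRE).

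The signal of all 12 probes was well above background on both arrays, and all 12 were lower in the HSD group after each array had been scaled on its 75th percentile, which was 252 intensity units for NSD and 233 for HSD. A fold change of at least 1.5 was reached by 9 of the 12 probes. Among all 27236 probes measured on both arrays, 8.04% were lower and 8.9% higher by this fold, and none of the 12 was higher. With the brightest probe standing for each gene, 5 of 8 genes (62.5%) were at least 1.5-fold lower, against 10.3% of all 16312 genes with a usable probe, and 0 of 8 were at least 1.5-fold higher, against 9.86%. The median log2 fold change was −0.97 over the 8 genes and 0.044 over the 15209 genes measured on both arrays. The genes were chosen with earlier results of these arrays known, so these shares describe the genes and carry no test. All 5 genes were also past 1.5-fold under each scaling and background correction tried.

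**Figure D1:**
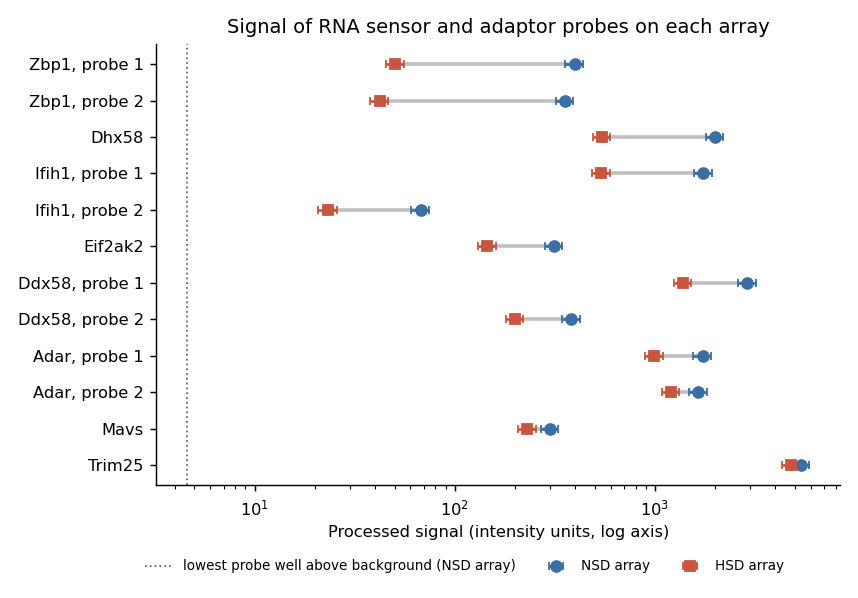
Processed signal (intensity units, log axis) of the 12 probes on the NSD array (circles) and the HSD array (squares), with bars for the error that the scanner software gives, before scaling between arrays. The Zbp1 probes lie farthest apart, at 396 and 355 units for NSD against 50.4 and 42.1 for HSD, and the symbols of Trim25 nearly coincide.

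The start regions of these genes were examined for the response element, since 5 of them were lower together. Of the 8 genes, 6 had 1 or more windows in the RefSeq promoter table of mouse assembly GRCm38.p6, each holding 250 bases before and 50 bases from the annotated start. The others were Dhx58 and Zbp1. The core of the ISRE was searched as GAAANNGAAA on both strands, and the gamma-activated site (GAS) as TTCNNNGAA, which reads the same on both strands. The ISRE core was present for Ddx58, Ifih1 and Eif2ak2, 3 of the 6 genes, against 3.99% of all 27025 genes with a window, and it was present for 8 of 17 interferon-induced genes (47.1%). It was also present for 6 of 10 genes of interferons themselves (60%) and for 2 of 9 genes around eIF2α (22.2%). In the other lists of nucleic acid sensing it was present for between 0 and 12.5% of the genes. None of the genes around eIF2α was 1.5-fold lower. None of the interferon genes with a usable probe was counted as 1.5-fold lower, but their signals were low. Ifnb1, dim for HSD, gave only a bound. A GAS was present for Eif2ak2 and in 1 window of Adar, against 9.55% of all genes. Mavs held neither and neither did Trim25. The search allowed no mismatch, so near matches to the ISRE core, which Adar and Trim25 hold, were not counted for any gene. In Ddx58 the match lay on the opposite strand and began 2 bases after the start, in Eif2ak2 it began 18 bases after it, and in Ifih1 32 bases after it. A match is a description of the letters, and no binding was measured. The windows with an ISRE core are shown with that of Mavs for contrast, 5′ to 3′ along the gene, in lower case with matches to either motif in capitals.
Ddx58, chr4:40239776-40240075, minus strand: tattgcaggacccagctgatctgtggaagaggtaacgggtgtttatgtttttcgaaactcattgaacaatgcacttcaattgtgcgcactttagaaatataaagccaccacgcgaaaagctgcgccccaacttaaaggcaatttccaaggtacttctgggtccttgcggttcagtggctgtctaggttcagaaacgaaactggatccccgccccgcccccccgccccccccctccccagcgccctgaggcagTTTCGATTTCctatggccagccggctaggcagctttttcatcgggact
Ifih1, chr2:62646206-62646505, minus strand: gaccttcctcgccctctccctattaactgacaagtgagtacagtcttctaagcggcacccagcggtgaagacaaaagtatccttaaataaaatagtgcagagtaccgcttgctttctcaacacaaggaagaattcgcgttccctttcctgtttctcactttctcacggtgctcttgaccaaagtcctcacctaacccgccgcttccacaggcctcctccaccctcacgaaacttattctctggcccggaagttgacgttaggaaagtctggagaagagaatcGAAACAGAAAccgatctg
Eif2ak2, chr17:78882523-78882822, minus strand: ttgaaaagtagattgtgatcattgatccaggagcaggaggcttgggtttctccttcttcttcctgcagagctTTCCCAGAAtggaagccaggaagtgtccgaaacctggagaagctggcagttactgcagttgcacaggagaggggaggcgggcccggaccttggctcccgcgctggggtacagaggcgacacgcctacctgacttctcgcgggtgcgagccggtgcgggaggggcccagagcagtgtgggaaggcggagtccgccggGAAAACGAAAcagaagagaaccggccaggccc
Mavs, chr2:131233813-131234112, plus strand: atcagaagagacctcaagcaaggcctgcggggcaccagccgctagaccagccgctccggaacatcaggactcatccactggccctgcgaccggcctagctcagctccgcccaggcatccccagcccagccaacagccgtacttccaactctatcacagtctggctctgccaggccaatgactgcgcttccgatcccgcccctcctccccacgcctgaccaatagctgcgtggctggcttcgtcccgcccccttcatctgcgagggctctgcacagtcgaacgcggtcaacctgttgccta

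The RIG-I-like receptors were all lower in the HSD group. Dhx58, which encodes LGP2, had a signal of 1989 intensity units for NSD and 544 for HSD, a log2 fold change of −1.76 and the largest difference among the 3 helicases. Ifih1, the gene of MDA5, had signals of 1743 and 540 at its brighter probe, a log2 fold change of −1.58. Its dimmer probe read 67.5 and 23.3 units, with a log2 fold change of −1.42. The probes of Ifih1 thus differed by 0.15, less than the median difference of 0.23 between the probes of the 3087 genes that were measured by 2 probes on both arrays. With normexp, a background correction that draws dim spots towards an offset, the dimmer probe had a log2 fold change of −0.49 and was no longer past 1.5-fold, while the brighter one was at −1.45.

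Ddx58, the gene of RIG-I, had signals of 2899 units for NSD and 1384 for HSD at its brighter probe, a log2 fold change of −0.95. Its other probe read 382 and 200 units, a log2 fold change of −0.82, so that the probes of Ddx58 differed by 0.14. Both probes of Ddx58 differed from those of the other helicases by more than 0.20, the scanner error of a single fold change. Dhx58 and the brighter probe of Ifih1 differed by less than this, but Dhx58 and the dimmer probe, at −1.42, by more. The error of a difference between fold changes is larger than that of a single one. Dhx58 and the brighter probe of Ifih1 stood at 29.6% and 33.6% of the scaled NSD signal, and Ddx58 at 51.7%.

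Mavs and Trim25, whose proteins act in the RIG-I pathway, were both short of 1.5-fold. Mavs, the mitochondrial adaptor of RIG-I and MDA5, had a signal of 299 units for NSD and 231 for HSD, a log2 fold change of −0.26, or 1.20-fold lower, somewhat above the scanner error. Trim25 had signals of 5369 and 4807 units, a log2 fold change of −0.045 that was smaller than the scanner error of 0.20. The value of Mavs lay between −0.30 and −0.14 and that of Trim25 between −0.15 and −0.039 over the alternatives, below 1.5-fold in each of them.

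The largest difference of the 8 genes was that of Zbp1. Its brighter probe, annotated to the transcript NM_001139519, had a signal of 396 units for NSD and 50.4 for HSD, a log2 fold change of −2.86. The other probe, annotated to NM_021394, read 355 and 42.1 units, a log2 fold change of −2.96. The probes were 7.26-fold and 7.79-fold lower with HSD, close to each other. Among the 15209 genes measured on both arrays, 31 had a more negative value than Zbp1, 144 a more negative value than Dhx58 and 185 than Ifih1. With the normexp correction the log2 fold changes of the Zbp1 probes were −1.98 and −1.96, still past those of the other 7 genes.

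The effector enzymes that act on double-stranded RNA were lower as well, to different degrees. Eif2ak2, the gene of PKR, had 1 probe with signals of 314 units for NSD and 145 for HSD, a log2 fold change of −0.99. The normexp correction brought it to −0.71, still past 1.5-fold. Adar had 2 probes of nearly equal brightness that straddled the threshold. One had a signal of 1729 for NSD and 994 for HSD, a log2 fold change of −0.69, and the other 1648 and 1204, a log2 fold change of −0.34. The difference of 0.35 between them was above the median of 0.23 over genes with 2 probes and below the 90th percentile of 0.70. Both probes are annotated to the transcript NM_001038587, and neither could be assigned here to the longer, interferon-inducible form of ADAR1 or to the shorter, constitutive form. Adar was counted by the second probe, which is the brighter on average, and so was not among the 5 genes.

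**Figure D2:**
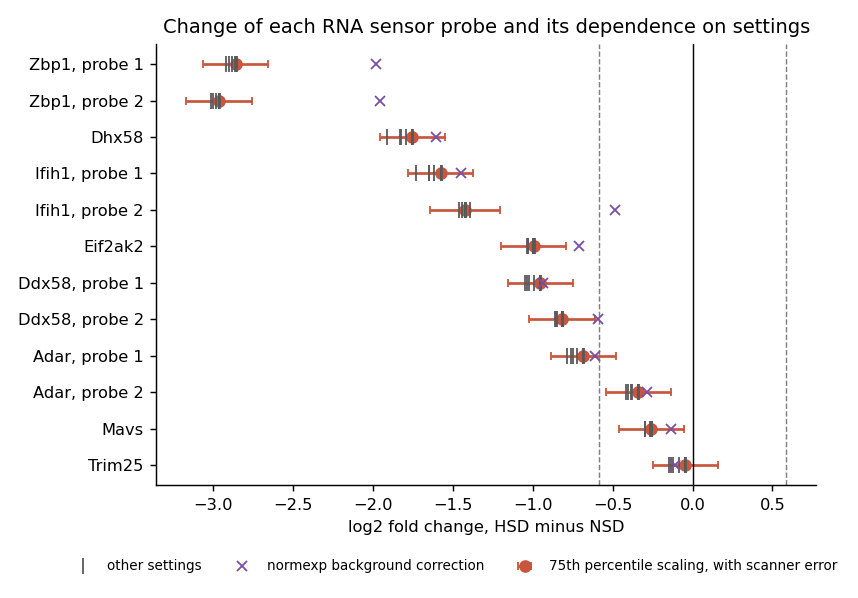
Log2 fold change (HSD minus NSD) of each of the 12 probes with 75th percentile scaling (circles, bars for the scanner error of the difference), under the other settings tried (ticks) and with the normexp background correction (crosses), with dashed lines at 1.5-fold. All values lie below 0, and the correction moves the probes of low HSD signal most, from −1.42 to −0.49 for the dimmer probe of Ifih1.

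The spread between repeated spots was available from 289 other probes that are printed many times on the array. The top quintile of signal, above 915 units, holds Trim25, Dhx58, both probes of Adar and the brighter probes of Ddx58 and Ifih1. There the median SD between spots of a probe gives 0.085 on the log2 scale for a difference between single spots. In the range of 49.1 to 182 units, which holds both Zbp1 probes by their mean signal, this value was 0.11, and at 16.6 to 49.1 units, where the dimmer probe of Ifih1 lies, it was 0.20. The differences of all these probes but Trim25, Mavs and both Adar probes included, were several times these values, and that of Trim25 was below it, so the spread between spots does not set the 5 counted genes apart from Mavs or Adar. In the top quintile 5.03% of all probes were at least 1.5-fold lower with HSD, and in the quintile that holds the Zbp1 probes 9.47% were.

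**Figure D3:**
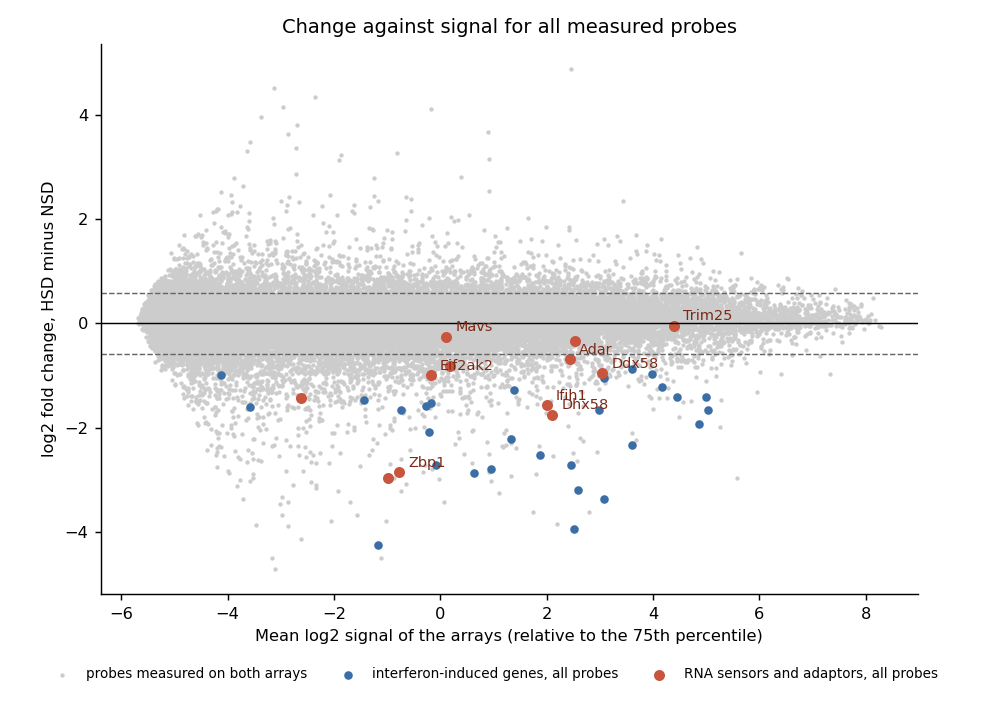
Log2 fold change (HSD minus NSD) against the mean log2 signal of the arrays for the 27236 probes measured on both arrays (grey), with the 12 probes of RNA sensors and adaptors and all probes of a list of interferon-induced genes marked, and dashed lines at 1.5-fold. The RNA sensors below the lower line lie at low, middle and high signal, on the same side as the interferon-induced genes. Mavs, Trim25 and 1 probe of Adar lie within the lines.

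Genes around the sensors in the same pathways did not share the difference as a group. Across 8 other lists of nucleic acid sensing, which hold 108 genes beyond the 8 and the interferon-induced list, 101 had a usable probe, of which 9 (8.91%) were at least 1.5-fold lower and 9 at least 1.5-fold higher, close to the shares over all genes. Their median log2 fold change was 0.078.

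Regulators of RIG-I-like receptors had a median of −0.018, with 2 of 21 genes lower and 3 higher, or 1 higher under the setting with the fewest. Zc3hav1, the gene of the antiviral protein ZAP that binds CpG-rich RNA, had a signal of 204 units for NSD and 20.1 for HSD, a log2 fold change of −3.23, beyond that of Zbp1. The normexp correction brought it to −1.64. Mul1, a mitochondrial ubiquitin ligase, followed with −0.79. Itch, a ubiquitin ligase that can degrade MAVS, had signals of 1588 and 3004 units (log2 fold change 1.03). Cyld, a deubiquitinase, had 21.2 and 49.0 units (log2 fold change 1.32), and 0.50 with the normexp correction, which is below 1.5-fold.

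Of 21 genes between MAVS and transcription, 1 was lower and 3 were higher, with a median of 0.13. The lower gene was Irf7, an interferon-regulatory factor that is itself induced by interferon, with a signal of 373 units for NSD and 57.0 for HSD and a log2 fold change of −2.60 (−1.74 after the normexp correction). Irf3, the constitutive factor downstream of MAVS, had signals of 2753 and 2319 units (log2 fold change −0.13), and Tbk1, the kinase that phosphorylates it, 351 and 412 (log2 fold change 0.34). The higher genes included Ikbke, the related kinase IKKε, with 263 and 462 units (log2 fold change 0.93), and Tank, a scaffold of both kinases, whose probes had log2 fold changes of 0.89 and 0.98. Tomm70a, the import receptor that links MAVS to these kinases, had a log2 fold change of −0.58, just short of 1.5-fold. Over the scalings and the background correction the value of Tomm70a ran from −0.63, past 1.5-fold, to −0.40. Of the 21 genes, 1 or 2 were then lower and 2 or 3 higher.

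Of 8 partners of ZBP1 in cell death, 2 were lower, by less than Zbp1 itself, and 1 was higher. Mlkl, the executioner of necroptosis, had a signal of 56.2 units for NSD and 27.5 for HSD (log2 fold change −0.92, or −0.29 with the normexp correction), and Casp8, which restrains necroptosis, 310 and 190 (log2 fold change −0.59, or −0.45 with the correction). Casp8 was also short of 1.5-fold with scaling on the median and with quantile normalization. Ripk1, the kinase they share, was higher at 0.60, but short of 1.5-fold with quantile normalization, cyclic loess and scaling on probes measured on both arrays, where the lowest value was 0.53, and Fadd was at 0.10. The median of the list was −0.18.

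The other kinases of eIF2α differed by little, and of the 10 genes of kinases, phosphatase subunits and related factors 0 were lower and 1 was higher. The log2 fold change was −0.011 for Eif2ak1 (HRI), −0.026 for Eif2ak3 (PERK) and 0.11 for Eif2ak4 (GCN2), beside −0.99 for Eif2ak2. Ppp1r15a, the subunit that directs dephosphorylation of eIF2α under stress, was higher with signals of 339 and 489 units (log2 fold change 0.64), and its constitutive relative Ppp1r15b had 0.50. Eif2s1, which encodes eIF2α, had −0.35 at its brighter probe and −0.013 at the other, and Dnajc3, an inhibitor of PKR, had −0.12.

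Among 15 usable genes of other proteins that bind or unwind double-stranded RNA, 0 were lower and 1 was higher by 1.5-fold, with a median of 0.28. The higher one was Dhx9, an RNA helicase, with low signals of 14.9 and 51.5 units (log2 fold change 1.90, or 0.50 with the normexp correction, below 1.5-fold). Adarb1, the paralog of Adar, had low signals of 8.76 and 11.9 units and a log2 fold change of 0.56, or 0.16 after the correction, and Adarb2 was dim (not well above background) on both arrays. Drosha and Tarbp2 of the microRNA pathway had −0.43 and −0.19.

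Endosomal sensing of nucleic acids held 1 higher and 0 lower of 9 usable genes. Myd88, the adaptor of most Toll-like receptors, had signals of 2557 units for NSD and 4937 for HSD (log2 fold change 1.06), and Ticam1, the adaptor of TLR3, had 0.39. Tlr3, the receptor for double-stranded RNA, was dim on both arrays. Irf5 and Tlr8 had the lowest values, −0.48 and −0.39.

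In cytosolic DNA sensing, 4 of 12 genes (33.3%) were lower, against 10.3% of all genes, and 0 higher. With the normexp correction 3 were lower. Ifi204, an interferon-induced DNA-binding protein, had signals of 2642 and 416 units (log2 fold change −2.55), and Trex1, an exonuclease that degrades cytosolic DNA and is likewise inducible by interferon, 4565 and 765 (log2 fold change −2.46). Rnaseh2a was counted by the brightest of its 4 probes, at −0.59 (−0.38 with the normexp correction), while the others had 0.039, −0.13 and 0.043. The sensor cGAS (Cgas) and its adaptor STING (Sting1) had log2 fold changes of 0.18 and 0.39, and Rnaseh2c had 0.56.

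**Figure D4:**
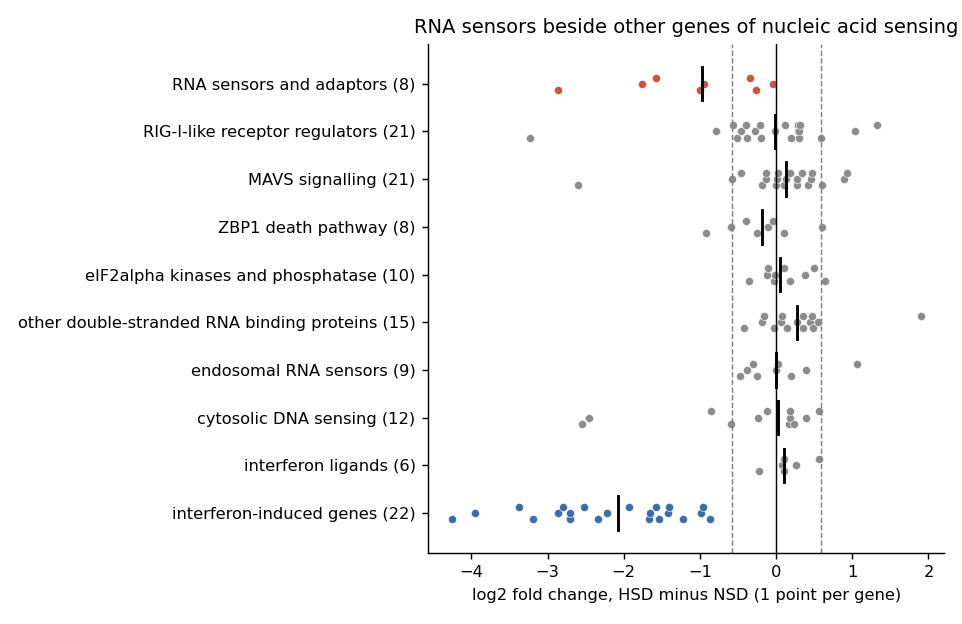
Log2 fold change (HSD minus NSD) of each gene measured on both arrays, by list, with the number of genes in brackets, the median as a black line and dashed lines at 1.5-fold. A gene in more than 1 list is drawn in each. RNA sensors and adaptors have a median of −0.97 and interferon-induced genes of −2.07, while the other medians lie between −0.18 and 0.28.

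A list of 24 genes known to be induced by type I interferon lay on the same side as the sensors. A usable probe was found for 22 of them, and all 22 were lower with HSD by at least 1.5-fold. The median of these log2 fold changes was −2.07, and they ran from −4.26 for Ifi44 to −0.96 for Irf9 and −0.87 for Stat2, both subunits of ISGF3. Ifi44 had signals of 487 and 23.5 units, and Ifit3, a binder of foreign RNA, 5648 and 337 (log2 fold change −3.95). Over the scalings and the background correction, 21 or 22 of the 22 genes were lower. Earlier results of these arrays had already shown low values for interferon-induced genes, so this list is no independent support for the sensors. The interferons themselves had low signals. Of 7 usable genes, 0 were counted as lower and 0 as higher by 1.5-fold, but 1 was lower with quantile normalization and with cyclic loess. Ifnb1 had a signal of 6.78 units for NSD and was dim for HSD, at least 1.42-fold lower, and Ifng had 9.52 and 9.44 units. Near-identical copies of the interferon alpha genes may share probes, and Ifna2 had log2 fold changes of 0.56 and 0.50 at its probes, Ifna5 of −0.22, and the lambda interferon gene Ifnl3 of 0.078, while the probes of Ifna12 disagreed, with 0.27 and −0.33.

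Markers of cell types were read beside these values, because in pooled cells fewer cells of a type and less RNA per cell cannot be told apart. All 7 named monocyte markers were well above background on both arrays, among them Itgam (CD11b). Of these, 1 was at least 1.5-fold lower with HSD (Ccr2, the receptor of monocyte-attracting chemokines, log2 fold change −0.78) and 1 higher (Chil3, 0.65), and 4 of 7 lay below 0, with a median of −0.13. Their summed scaled signal, in units of the 75th percentile, was 356 for NSD and 425 for HSD, a difference that came from Chil3. Neutrophil markers were present too, with all 9 named genes well above background, 1 lower (Mpo, log2 fold change −0.92) and 0 higher. Their sums of 1198 and 1235 came mostly from very bright genes such as Camp and S100a8. Ly6c2 and Ly6g were not analysed here.

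Macrophage markers moved in the direction of the sensors. Of 9 named, 6 were at least 1.5-fold lower and 0 higher, the sum was 102 for NSD and 72.2 for HSD, and C1qa was well above background with NSD alone. The log2 fold change was −4.50 for Mrc1, −3.68 for Fcgr1, which interferon also induces, −0.37 for Csf1r, −0.55 for Adgre1 (F4/80) and 0.33 for C1qb. The median of the list was −1.56, and with the normexp correction it was −0.67 with 5 genes lower. The part of macrophages in the difference of the RNA sensors was not tested.

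Most carcinoma markers lay the other way, at low signal except for Lcn2. Of 7 usable, 3 were at least 1.5-fold higher with HSD, namely Epcam, Krt8 and Krt18, with log2 fold changes of 0.70, 0.61 and 0.76. With the normexp correction 0 were. Krt14 had 0.069, Cldn4 0.18 and Lcn2 0.33. Cdh1, read from 10 spots per array, lay below 0, with signals of 45.0 and 30.8 units (log2 fold change −0.43). The sums of the carcinoma markers, 214 and 270, came mostly from Lcn2, which neutrophils also express. Krt19 was dim on both arrays. Among 8 usable markers of T and NK cells 5 lay below 0, with a median of −0.29, and 1 was lower, Cd3e with −1.09. Their sums of 8.11 and 10.1 ran against this because of Cd3d, with signals of 1501 and 1871 units, and Ncr1 was dim on both arrays. Dendritic cell markers had sums of 71.6 and 77.6, with 1 lower and 2 higher of 8 and Xcr1 dim on both, and Siglech, a marker of plasmacytoid dendritic cells, had signals of 13705 and 13214 units. Markers of B cells had sums of 34.8 and 44.7, with 0 lower and 1 higher of 7. Endothelial markers had sums of 2.05 and 2.29, with 0 lower and 0 higher of 6 and Emcn and Tie1 dim on both. Fibroblast markers had sums of 0.677 and 0.637, with 2 lower and 1 higher of 5 and Lum, Pdgfra and Postn dim on both. The parts of these cells in the difference of the RNA sensors were not tested either.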

How the data were processed

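The authors deposited the scanner output of 1 Agilent Mouse GE v2 array per diet. The processed signal in the deposited files is an intensity, from which Feature Extraction 11.0.1.1 removed background and spatial trends within the array, with an error for each spot. The deposited log2 values, normalized by the authors in GeneSpring by a method not given in the sources used here, have the same quartiles and maximum in both columns and served as an alternative. Non-control spots without an outlier flag were taken to log2, repeated spots were averaged, and each array's 75th percentile was subtracted. Probes were named through RefSeq transcript identifiers of GRCm38.p6, which matched 27223 of 39413 probes (69.1%). The array design is annotated on another build, so coordinates of the probes are not given. Those of the promoter windows are on GRCm38.p6. The probe with the highest mean log2 signal stood for a gene, all probes of the 8 genes are reported, and a gene was counted when that probe was well above background for NSD, HSD or both and differed at least 1.5-fold. A probe dim on 1 array gave a lower bound on the fold change, for which its dim value was raised to the lowest signal well above background (4.61 units for NSD and 4.39 for HSD) where it lay under that.

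With 1 array per diet no test was run, and precision is limited by the number of arrays. Probes well above background made up 71.9% for NSD and 72.4% for HSD. The 8 genes, the 9 lists of related genes and the 10 lists of cell type markers were chosen with earlier results of these arrays known. Named from the lists were the 2 highest and the 2 lowest genes of each among those measured on both arrays, and a few fixed genes such as Tbk1, Irf3, Irf7, Sting1, Cgas and Tlr3. Rnaseh2a was named because its probes disagreed. Values of marker genes were picked as examples after they were seen, and 1 marker list and some single genes are not reported here. Simulated arrays with known changes were used to test how probes were counted. Alternatives were normexp background correction (offset 50, on the median signal of a spot), quantile normalization, cyclic loess, scaling on the median or on probes measured on both arrays, the deposited values, other filters, flagged spots kept, a 2-fold threshold and the median probe of a gene. Python 3.11.15, numpy 2.4.6, pandas 2.3.3, matplotlib 3.10.9, R 4.3.3 and limma 3.58.1 were used.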

Additional observations from a re-analysis of the deposited data

How the results depend on the processing

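The same 5 genes (Ddx58, Dhx58, Eif2ak2, Ifih1 and Zbp1) were at least 1.5-fold lower under every alternative but the 2-fold threshold, under which 3 genes (Dhx58, Ifih1 and Zbp1) and 5 probes were counted. No gene was higher under any of the 11 alternatives. The median over the 8 genes lay between −1.04 and −0.82. Of 231 values recomputed, 222 stayed within the scanner error of the difference or within 1.5 times the count, and none changed sign. This tally overstates the stability, because some settings could hardly alter these values. The filters on dim probes had no probe of the 8 genes to remove or add, and none of their spots was flagged. These filters and the keeping of flagged spots therefore did not test the 8 genes. Gene values also repeat that of the brightest probe, except where the median probe was used. The normexp correction brought Zbp1 to −1.98 and Eif2ak2 to −0.71, and the dimmer probes of Ddx58 and Ifih1 to −0.59 and −0.49. The normexp correction gave 4.07% of all genes lower and 3.89% higher, and cyclic loess 12.2% lower and 7.63% higher, against 10.3% and 9.86%, and both left 0 higher and the same 5 lower among the 8. Signals near background allow only bounds, and the spread between mice was not measured. No paired analysis was possible because each diet has 1 array.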
